A study of Mus musculus with 24 samples.

Results

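The hypothalamic transcriptomes of mice given an inhibitor of PSD-95 were set directly against those of mice given an inhibitor of PICK1. The members are all 8 PSD-95i libraries and the 7 PICK1i libraries in which the cortical glutamate transporter gene Slc17a7 stayed under 200 CPM (counts per 1000000 counts of the library), together 15 of the 24 libraries of the series. PICK1i replicate 6 held 248 CPM of Slc17a7 and was left out by this rule, while the highest member held 3.66 CPM. Of the 8 saline libraries, which stayed outside the fit, the highest held 81.9 CPM. PSD-95i stands for UCCB01-147 given at 25 mg/kg, and PICK1i for mPD5 given at 56 mg/kg. The doses differ, so the contrast compares the 2 treatments as given and not the compounds at matched doses.

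All mice were male, obese from diet, of a mean body weight of 53 g, and housed in pairs. Each received 1 injection a day for 5 days and was killed 2 h after the last one, on the morning of the fifth day. Poly(A) RNA of the whole hypothalamus was sequenced. The labels do not tie libraries to mice, so the p-values below measure the spread between these libraries. In whole tissue, fewer cells of a type and less RNA per cell cannot be told apart.

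PSD-95, encoded by Dlg4, is the main scaffold of the excitatory synapse. Its PDZ domains hold the tails of NMDA receptor subunits and tie the receptor to neuronal nitric oxide synthase. PICK1 joins a PDZ domain to a membrane-bending BAR domain, binds AMPA receptor subunits and protein kinase C alpha, and takes part in removing AMPA receptors from the synaptic surface. In the hypothalamus both receptor families carry fast excitation onto the neurons that govern hunger, satiety and energy use.

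Estimated counts per library ran from 5601717 to 9228858. Neuronal markers summed to 6486 to 7245 CPM in PSD-95i and 5506 to 7176 CPM in PICK1i, and markers of hypothalamic nuclei to 1230 to 1584 CPM and 1295 to 1640 CPM. Both marker sets were thus present in all 15 libraries. A pair of whole-library measures spread more widely in PICK1i. Transcripts of the mitochondrial genome took 9.68 ± 0.628% of the counts of a PSD-95i library (SD, n = 8) and 12.1 ± 2.75% of a PICK1i library (SD, n = 7). The difference was -2.39 percentage points, with a two-sided exact permutation p of 0.0233 over 6435 splits. The measure was chosen because earlier results of these data showed it high in some PICK1i libraries. This p is therefore no independent test. PICK1i replicates 1, 2 and 5 held 16.6%, 13.99% and 13.5%, above every PSD-95i library, whose highest share was 10.4%. Leaving out those 3 libraries brought the difference to -0.425 points (exact permutation p = 0.404). They had the 3 highest shares of their group, so leaving them out had to make the difference less negative. That p is thus no separate test of the other libraries. Leaving out PSD-95i replicate 3, the library with the lowest share, gave -2.22 points (exact permutation p = 0.0565). Counting error is small beside this spread, since the 95% Wilson interval of PICK1i replicate 1 ran from 16.58 to 16.64%.

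The second measure was length tilt, the slope of a library's log2 deviations on log2 transcript length, which is negative where short transcripts are relatively abundant. It ran from -0.00466 to 0.0952 in PSD-95i and from -0.168 to 0.0748 in PICK1i. The lowest values were again those of PICK1i replicates 1, 2 and 5, at -0.168, -0.125 and -0.150. PICK1i replicate 7 had the highest of its group, 0.0748, together with the lowest mitochondrial share, 8.70%. What sets these libraries apart was not tested. Many list medians and single values below, though not all, are also given without PICK1i replicates 1, 2 and 5. These replicates stand out by mitochondrial share and length tilt, so values of mitochondrially encoded genes without them are no separate result.

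**Figure D1:**
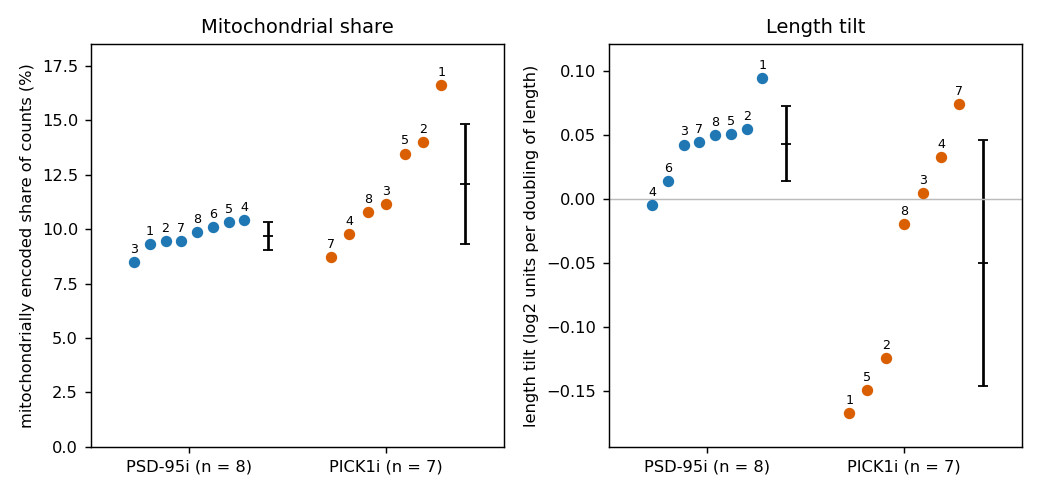
Mitochondrially encoded share of counts (left, percent) and length tilt (right, log2 units per doubling of transcript length) in each library, one point per library with its replicate number, and mean with SD as bars. PICK1i replicates 1, 2 and 5 lie at 13.5% or more in share and at -0.125 or less in tilt, outside the range of the 8 PSD-95i libraries.

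No gene differed between the inhibitors at the threshold used. Of 15331 genes tested by edgeR's quasi-likelihood test, 0 were called at an adjusted p under 0.05 (0%), and the smallest adjusted p was 0.123. At an unadjusted p under 0.05 there were 3557 genes (23.2%), 1737 with a higher mean in PSD-95i (11.3%) and 1820 with a higher mean in PICK1i (11.9%). These 3 shares are the background for every count of list members at an unadjusted p under 0.05 below. Differences were small, with a median absolute log2 fold change of 0.12 over all genes and 0.24 over those at an unadjusted p under 0.05. Throughout, a positive log2 fold change is a higher mean in PSD-95i. Of 36176 transcripts tested, 0 were called (0%, smallest adjusted p = 0.168) and 6669 had an unadjusted p under 0.05 (18.4%).

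The count of calls turned on 1 library and on the choice of tool. Without PICK1i replicate 7, edgeR called 2070 of 15363 genes and 2673 transcripts. Of the genes, 1122 had a higher mean in PSD-95i and 948 a higher mean in PICK1i. With all 15 libraries DESeq2 called 700 of 15331 genes, 364 positive and 336 negative, while limma-voom called 0. These counts over all genes are the background for DESeq2's counts of list members below. Genes to which DESeq2 gave no adjusted p count as not called. In the other direction, without PICK1i replicates 1, 2 and 5 the genes at an unadjusted p under 0.05 numbered 964 (6.15%), and the smallest adjusted p was 0.744. With length tilt as a covariate they numbered 694 (4.53%). With library number as a covariate they numbered 1609 (10.5%), and the smallest adjusted p by edgeR was 0.432. Library numbers ran from 1 to 20 in the PICK1i libraries used and from 11 to 22 in PSD-95i, so they partly go with the group. What these numbers stand for is not given. Of the 1737 genes at an unadjusted p under 0.05 with a higher mean in PSD-95i, 61.1% had PICK1i replicates 1, 2 and 5 as the 3 lowest of the 15 libraries, against 12.7% of all genes tested. Of the 1820 with a higher mean in PICK1i, 52.5% had them as the 3 highest, against 10.6%. Both sets were chosen by a difference in these same libraries, which by itself raises such shares above those of all genes. The median transcript length was 4522 bases in the first set, 1602 in the second and 2783 over all genes tested.

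Of the genes of the drug targets, Dlg4 was nearly level between the groups, while Pick1 had a lower median in PSD-95i. Dlg4 lay at 578 CPM in the lowest PSD-95i library, 616 in the median and 659 in the highest, against 586, 617 and 669 CPM in PICK1i. The groups overlapped fully, and the log2 fold change was -0.01 ± 0.05 (SE, edgeR adjusted p = 0.912). Pick1 lay at 56.7, 60.5 and 64.0 CPM in PSD-95i and at 55.6, 67.7 and 84.9 CPM in PICK1i. Its 2 highest values were those of PICK1i replicates 5 and 1, and its lowest was that of PICK1i replicate 7. The log2 fold change of Pick1 was -0.19 ± 0.07 (edgeR adjusted p = 0.141), -0.07 without PICK1i replicates 1, 2 and 5, and called without PICK1i replicate 7 (adjusted p = 0.0215). Dlg4 (ENSMUSG00000020886) lies on chromosome 11 from 70016942 to 70047522 and Pick1 (ENSMUSG00000068206) on chromosome 15 from 79229173 to 79249484 (GRCm38).

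Transcripts of these genes did not all share a sign. For Dlg4, the most abundant transcript, ENSMUST00000018700, had a median of 383 CPM in PSD-95i and 392 CPM in PICK1i, with a log2 fold change of -0.12 ± 0.06. The much rarer ENSMUST00000135916 had a median of 6.83 CPM against 5.27 CPM and a log2 fold change of 0.46 ± 0.15. For Pick1, ENSMUST00000171581 had a median of 22.7 CPM against 29.5 CPM and -0.36 ± 0.11, while ENSMUST00000166155 lay at 12.4 and 12.9 CPM with -0.08 ± 0.11. In edgeR's fit of all transcripts the adjusted p of these 4 ran from 0.168 to 0.723. The split of reads among a gene's transcripts is Salmon's estimate, whose uncertainty the test leaves out.

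Scaffolds of the PSD-95 family and the proteins that bind them leaned toward higher means in PSD-95i. Of 20 such genes, all tested, edgeR called 0 and DESeq2 1, Nos1. By edgeR 9 had an unadjusted p under 0.05 with a positive log2 fold change and 0 with a negative one. The median was 0.16, against -0.01 over all genes tested, and 0.05 without PICK1i replicates 1, 2 and 5. Nos1, which encodes the nitric oxide synthase that PSD-95 anchors, lay at 115, 137 and 147 CPM in PSD-95i (lowest, median, highest) and at 83.6, 109 and 139 CPM in PICK1i. Its 3 lowest libraries were PICK1i replicates 2, 1 and 5, and PICK1i replicate 7 lay among the PSD-95i libraries. The log2 fold change of Nos1 was 0.31 ± 0.10 (edgeR adjusted p = 0.123) and 0.12 without those 3 libraries. Dlg2, which encodes the related scaffold PSD-93, lay at 34.3, 50.4 and 56.4 CPM against 24.4, 40.6 and 57.4 CPM, with a log2 fold change of 0.33 ± 0.15. Dlg3, which encodes SAP102, lay at 72.4, 74.4 and 79.6 CPM against 47.0, 67.3 and 82.3 CPM, with 0.20 ± 0.10. For both genes PICK1i held the lowest and the highest library. Without PICK1i replicates 1, 2 and 5 the log2 fold change was 0.07 for Dlg2 and -6.6e-05 for Dlg3. Dlg1, which encodes SAP97, had 0.10 ± 0.07 and turned to -0.04 without those 3 libraries.

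The other 6 partners at an unadjusted p under 0.05 were of a like size. Dlgap2, of a scaffold layer below PSD-95, had a log2 fold change of 0.26, Kcnj10, a glial potassium channel gene, 0.24 ± 0.09, and Kif1b, a motor protein gene, 0.20 ± 0.08. Adam22, the receptor of the secreted protein LGI1, had 0.20 ± 0.08. The neuroligin genes Nlgn1 and Nlgn3, whose proteins bind neurexins across the synapse, had 0.29 and 0.21. The values without PICK1i replicates 1, 2 and 5 were 0.12 for Dlgap2, 0.08 for Kcnj10, 0.06 for Kif1b, 0.11 for Adam22, 0.08 for Nlgn1 and 0.04 for Nlgn3. Of these partners, Kcnj10 lay at 350, 376 and 424 CPM in PSD-95i and 242, 296 and 404 CPM in PICK1i, so that the groups overlapped. In 9 of the 20 genes PICK1i replicates 1, 2 and 5 were the 3 lowest libraries.

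NMDA receptor subunit genes went in both directions. Of 7 listed, Grin3b was under the filter on low counts. Of the 6 tested, edgeR and DESeq2 called 0, DESeq2 giving no adjusted p for 2, and 3 had an unadjusted p under 0.05. Grin2b, whose protein tail is a classic ligand of PSD-95, lay at 113, 134 and 161 CPM in PSD-95i and at 78.9, 106 and 142 CPM in PICK1i (log2 fold change 0.31 ± 0.11, edgeR adjusted p = 0.134). Its value without PICK1i replicates 1, 2 and 5 was 0.18. Grin3a had 0.22 ± 0.09 and 0.05 without them, and Grin2a 0.19 ± 0.09 and 0.06. Grin2d had the opposite sign, at 62.9, 73.4 and 86.7 CPM against 76.5, 81.7 and 106 CPM, with -0.21 ± 0.08 and -0.15 without those 3 libraries. The obligatory subunit gene Grin1 lay at 394, 406 and 443 CPM against 348, 423 and 457 CPM, with 0.02 ± 0.06. Its sign turned in several alternatives given under the processing.

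**Figure D2:**
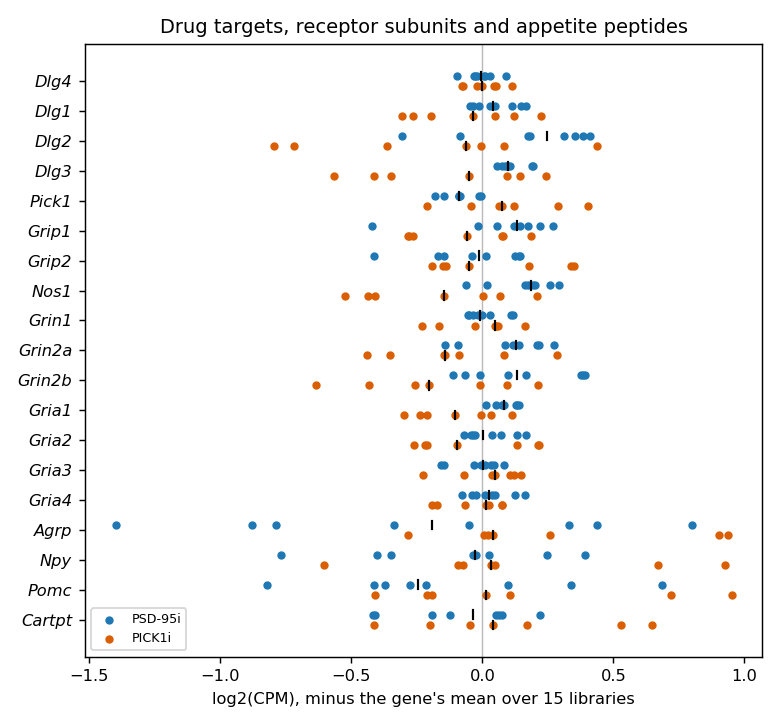
Level of each gene in every library as log2 CPM minus the gene's mean over the 15 libraries, PSD-95i in blue and PICK1i in orange, one point per library, with a black bar at each group's median. The groups overlap for all 19 genes; the widest spread is that of Agrp, from 1.51 to 7.64 CPM.

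PICK1's partners showed a smaller lean. Of 21 genes, all tested, edgeR called 0 and DESeq2 1, Slc1a2, DESeq2 giving no adjusted p for 7. By edgeR 5 had an unadjusted p under 0.05 with a positive log2 fold change and 2 with a negative one, Pick1 itself and the actin nucleator subunit gene Arpc2 (-0.11). The median was 0.05 and turned to -0.02 without PICK1i replicates 1, 2 and 5. Slc1a2, the main glutamate transporter gene of astrocytes, lay at 1149, 1297 and 1493 CPM in PSD-95i and 817, 1066 and 1348 CPM in PICK1i. It had a log2 fold change of 0.28 ± 0.10 and 0.09 without those 3 libraries. Grm7, a presynaptic glutamate receptor gene whose protein binds PICK1, lay at 61.4, 69.6 and 78.2 CPM against 53.3, 58.4 and 68.1 CPM, with 0.19 ± 0.07 and 0.13 without them. Prkca, which encodes protein kinase C alpha, had 0.21 ± 0.08 and 0.04. The adjusted p of these 3 genes lay between 0.127 and 0.154 by edgeR. Grip1 and Grip2, whose proteins compete with PICK1 for the AMPA receptor tail, had 0.15 ± 0.10 and -0.10 ± 0.10.

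AMPA receptor genes were nearly level. Of 17 subunit and auxiliary genes edgeR called 0 and DESeq2 1, Gria1, while 2 had an unadjusted p under 0.05, both positive, a share near the background of 11.3%, and the median was 0.04. Gria1, which encodes the subunit GluA1, lay at 586, 614 and 639 CPM in PSD-95i and 472, 540 and 627 CPM in PICK1i (0.18 ± 0.06, edgeR adjusted p = 0.123). Cacng5, an auxiliary subunit gene of the TARP family, lay at 19.9, 22.6 and 24.3 CPM against 12.7, 18.4 and 21.9 CPM (0.36 ± 0.10, edgeR adjusted p = 0.123). In both genes PICK1i replicates 1, 5 and 2 were the lowest libraries, and the values without them were 0.08 and 0.19. Gria2, whose protein is a well-known ligand of PICK1, had 0.05 ± 0.08, Gria3 -0.05 ± 0.06 and Gria4 0.06 ± 0.06. Among 23 scaffolds and enzymes of the postsynaptic density edgeR called 0 and DESeq2 1, Camk2a. The median was 0.02, and -0.01 without PICK1i replicates 1, 2 and 5. The kinase gene Camk2a lay at 517, 544 and 596 CPM against 466.1, 496 and 536 CPM, with 0.13 ± 0.05. It turned to -0.07 when PICK1i replicate 6 was kept. Sipa1l1, a regulator of spine shape, had 0.21 ± 0.07, and 0.09 without PICK1i replicates 1, 2 and 5. Begain, which encodes a PSD-95 binding protein, had -0.21 ± 0.08, and -0.007 without those libraries.

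Neuropeptides of appetite had mostly negative log2 fold changes. Of 11 appetite-raising genes 10 were tested, edgeR called 0 and DESeq2 1, Penk, 8 were negative, and 3 had an unadjusted p under 0.05, all negative. The median was -0.27, and -0.13 without PICK1i replicates 1, 2 and 5. Agrp, the melanocortin antagonist of arcuate hunger neurons, lay at 1.51, 3.50 and 6.95 CPM in PSD-95i and 3.28, 4.10 and 7.64 CPM in PICK1i. Its log2 fold change was -0.41 ± 0.27 (edgeR adjusted p = 0.362), and the spread within PSD-95i was nearly as wide as that over all 15 libraries. Npy, which the same neurons release, lay at 25.3, 42.2 and 56.5 CPM against 28.3, 44.1 and 81.7 CPM. It had -0.27 ± 0.19 and turned to 0.09 without those 3 libraries. Penk, the enkephalin precursor gene, lay at 95.9, 113 and 122 CPM against 114, 131 and 174 CPM (-0.31 ± 0.08, edgeR adjusted p = 0.123). PICK1i replicate 7 lay within the PSD-95i range and the other 6 PICK1i libraries lay above it. Ghrh, the gene of growth hormone-releasing hormone, had -0.62 ± 0.25, and Pmch, of melanin-concentrating hormone, -0.25 ± 0.11. Without the 3 libraries these were -0.12 and -0.17.

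Appetite-lowering genes had the same sign. Of 18 listed 14 were tested, edgeR called 0 and DESeq2 1, Vgf, 11 were negative and 3 had an unadjusted p under 0.05, all negative. The median was -0.19, and -0.04 without PICK1i replicates 1, 2 and 5. Pomc, the precursor of melanocortins, lay at 66.4, 99.0 and 188 CPM against 88.4, 118 and 227 CPM, with -0.27 ± 0.21. Cartpt, of the same neurons, lay at 92.5, 121 and 144 CPM against 92.7, 127 and 194 CPM, with -0.22 ± 0.13. Both turned positive without PICK1i replicates 1, 2 and 5, to 0.14 and 0.07, and the 2 highest PICK1i libraries of each were replicates 1 and 2. Other genes of the list kept most of their value. Nmb had -0.55, and -0.46 without those libraries. Vgf, the gene of a secreted neuronal peptide precursor, stayed at -0.19 without them. Vgf lay at 286, 318 and 377 CPM against 343, 361 and 387 CPM (-0.18 ± 0.06, edgeR adjusted p = 0.123). Sst, the somatostatin gene, had -0.33 ± 0.12, and -0.05 without the 3 libraries.

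Receptors and signalling genes of energy balance leaned the other way. Of 38 genes 37 were tested, edgeR called 0 and DESeq2 3, namely Ntrk2, Stat3 and Adcy3. DESeq2 gave no adjusted p for 20 of the 37, among them Glp1r, Ghsr and Prkaa2. By edgeR 28 were positive, and 14 had an unadjusted p under 0.05, all 14 positive. The median was 0.15, and 0.07 without PICK1i replicates 1, 2 and 5. Glp1r, the receptor of the gut hormone GLP-1, lay at 1.76, 3.99 and 4.72 CPM in PSD-95i and 0.328, 1.68 and 3.73 CPM in PICK1i, while saline libraries, scaled together with both groups as in all saline values below, lay between 2.35 and 5.20 CPM. Its 3 lowest libraries were PICK1i replicates 5, 2 and 1, under 0.6 CPM. The log2 fold change of Glp1r was 1.00 ± 0.35 (edgeR adjusted p = 0.128), the largest of this list, and 0.47 without those 3 libraries. Ntrk2, the receptor of brain-derived neurotrophic factor, lay at 830, 916 and 968 CPM against 608, 796 and 887 CPM (0.28 ± 0.08). Stat3, which carries the leptin signal to the nucleus, had 0.25 ± 0.09, and Adcy3, an adenylyl cyclase gene, 0.31 ± 0.11. Ghsr, the ghrelin receptor gene, had 0.47 ± 0.17, Prkaa2, a catalytic subunit gene of AMP-activated kinase, 0.31 ± 0.12, and Insr, the insulin receptor gene, 0.15 ± 0.06. Without PICK1i replicates 1, 2 and 5, Ntrk2 was at 0.11, Stat3 at 0.11, Adcy3 at 0.10, Ghsr at 0.20, Prkaa2 at 0.11 and Insr at 0.09.

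**Figure D3:**
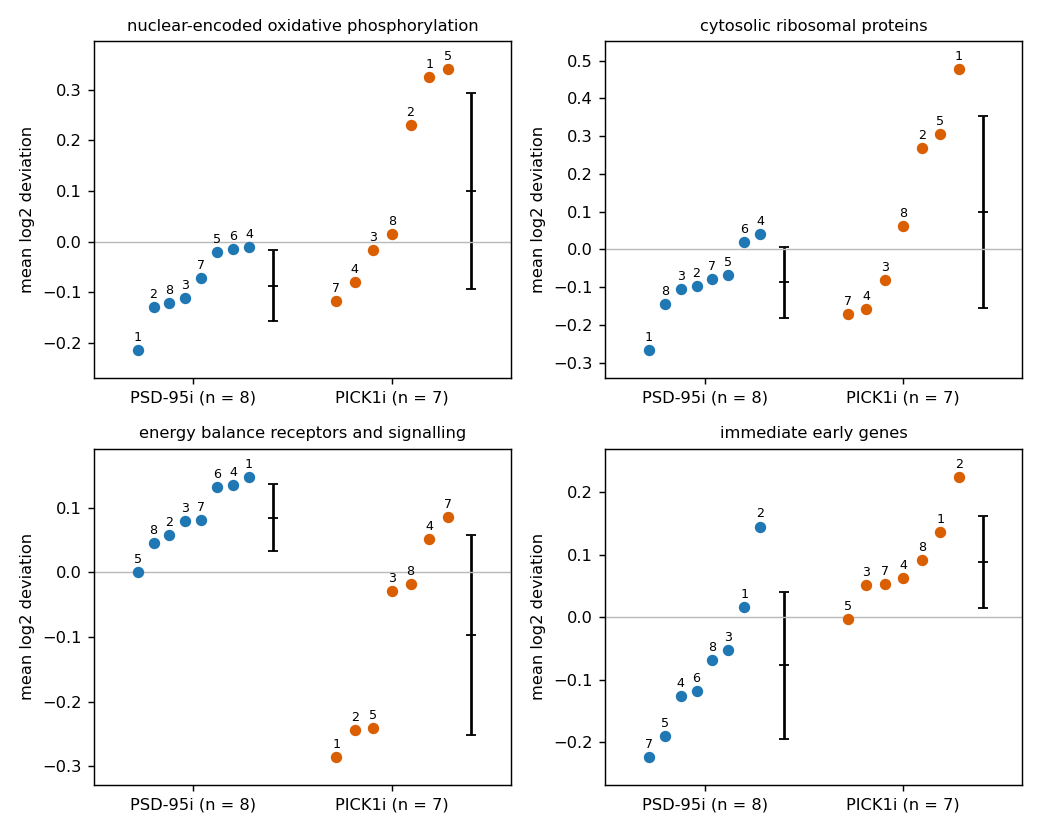
Mean log2 deviation of 4 gene lists in each library, relative to each gene's mean over the 15 libraries, one point per library with its replicate number, and mean with SD as bars. PICK1i replicates 1, 2 and 5 stand apart in the oxidative phosphorylation, ribosomal and energy balance panels, while in the immediate early gene panel the PICK1i libraries lie between -0.00359 and 0.225 with replicate 5 the lowest.

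Genes of energy metabolism had almost uniformly negative values. All 15 mitochondrially encoded genes had a negative log2 fold change with an unadjusted p under 0.05, with a median of -0.38. Of these 15 edgeR called 0 and DESeq2 8. mt-Nd4, a complex I subunit, lay at 7054, 7551 and 8592 CPM in PSD-95i and at 6751, 10145 and 13953 CPM in PICK1i (-0.45 ± 0.11, edgeR adjusted p = 0.123). Of the nuclear-encoded genes of oxidative phosphorylation 74 of 75 were tested, edgeR called 0 and DESeq2 23, all negative, 68 were negative by edgeR, and 50 against 2 had an unadjusted p under 0.05. Their median was -0.24. In 55 of the 74 (74.3%) PICK1i replicates 1, 2 and 5 were the 3 highest libraries, against 10.6% of all genes tested. Without these libraries the medians were -0.09 for the mitochondrially encoded and -0.04 for the nuclear-encoded genes, and with length tilt as a covariate -0.02 and 0.005. The 2 positive genes at that level were Atp5b (0.18), a subunit of ATP synthase, and Sdha (0.14), of succinate dehydrogenase, at 0.04 and 0.03 without these libraries. mt-Atp8 overlaps mt-Atp6, and its value is uncertain.

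Named members were close in size. Ndufb4, an accessory subunit gene of complex I, lay at 46.9, 49.7 and 53.5 CPM in PSD-95i and 48.2, 60.0 and 79.1 CPM in PICK1i (-0.34 ± 0.09, and -0.13 without the 3 libraries). Ndufs5, another complex I gene, lay at 50.5, 53.4 and 60.7 CPM against 52.3, 61.0 and 85.2 CPM (-0.32 ± 0.09, and -0.10). Cox7b, of cytochrome oxidase, had -0.32 ± 0.08, and -0.15. Ndufaf6, an assembly factor gene of complex I, differed from these: at 4.87, 5.57 and 6.94 CPM against 5.86, 8.04 and 9.69 CPM it had -0.49 ± 0.12 (edgeR adjusted p = 0.123), and -0.50 without PICK1i replicates 1, 2 and 5. Only PICK1i replicate 7 lay within its PSD-95i range. Saline libraries held 4.09 to 5.65 CPM of Ndufaf6. Esrra, a nuclear receptor gene that controls oxidative metabolism, kept most of its value likewise. It lay at 27.4, 29.1 and 32.1 CPM against 29.3, 35.5 and 40.3 CPM (-0.29 ± 0.07), with -0.26 without those libraries and 24.3 to 29.3 CPM in saline.

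Promoters of the oxidative phosphorylation, ribosomal and immediate early genes were searched for the letters of 4 factors that act on such genes. Whether these factors bear on the values above was not tested. The windows ran from 250 bases before to 50 after the RefSeq start site, and both strands were searched. The motif AAGGTCA of the estrogen-related receptors, to which Esrra belongs, was in 8 of 63 oxidative phosphorylation genes with a promoter sequence (12.7%), against 3.89% of 10761 genes tested. The core of NRF1, a regulator of respiratory genes, GCGCATGCG, was also in 8 of 63 (12.7%), against 3.88%. The ETS core CCGGAAG was in 24 of 58 ribosomal protein genes (41.4%), against 18.2%. The cyclic AMP response element TGACGTCA was in 2 of 25 immediate early genes (8%), 6 of 58 ribosomal protein genes (10.3%) and 4 of 63 oxidative phosphorylation genes (6.35%), against 3.55%. The ETS core was also in 16 of 63 oxidative phosphorylation genes (25.4%) and 2 of 25 immediate early genes (8%). The receptor motif and the NRF1 core were each in 3 of 58 ribosomal protein genes (5.17%) and 0 of 25 immediate early genes (0%). The following sequences show the 250 bases before the start in members of small p that hold a match, with matches in capitals (GRCm38.p6, 5′ to 3′ on the gene's strand). In the Ndufa11 line the capitals are the response element and then 2 overlapping NRF1 cores, 1 on each strand.
Ndufb4, chr16:37654369-37654618, minus strand: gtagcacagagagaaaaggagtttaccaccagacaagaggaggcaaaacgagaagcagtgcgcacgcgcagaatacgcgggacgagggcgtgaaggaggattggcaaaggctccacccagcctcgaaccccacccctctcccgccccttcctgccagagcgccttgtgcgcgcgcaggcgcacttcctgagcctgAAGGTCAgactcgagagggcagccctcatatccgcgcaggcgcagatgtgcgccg
Ndufs5, chr4:123718187-123718436, minus strand: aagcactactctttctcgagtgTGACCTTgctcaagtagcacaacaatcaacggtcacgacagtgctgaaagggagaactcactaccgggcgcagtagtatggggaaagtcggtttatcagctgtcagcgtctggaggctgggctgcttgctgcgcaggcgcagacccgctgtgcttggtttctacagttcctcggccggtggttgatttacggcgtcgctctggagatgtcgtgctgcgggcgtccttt
Ndufa11, chr17:56717512-56717761, plus strand: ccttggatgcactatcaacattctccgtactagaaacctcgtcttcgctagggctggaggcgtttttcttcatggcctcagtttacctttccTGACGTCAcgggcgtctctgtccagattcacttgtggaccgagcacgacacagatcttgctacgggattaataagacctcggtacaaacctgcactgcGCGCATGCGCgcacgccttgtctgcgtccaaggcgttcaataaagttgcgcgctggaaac
Rps25, chr9:44407464-44407713, plus strand: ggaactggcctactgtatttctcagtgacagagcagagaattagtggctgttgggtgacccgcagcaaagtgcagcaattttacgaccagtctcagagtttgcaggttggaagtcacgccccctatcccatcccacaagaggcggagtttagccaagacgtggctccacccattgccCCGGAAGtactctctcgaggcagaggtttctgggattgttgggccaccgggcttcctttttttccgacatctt
A match is a description of letters and not a binding site.

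Genes of protein synthesis and breakdown had the same sign. Of 79 cytosolic ribosomal protein genes, all tested, edgeR called 0 and DESeq2 7, 77 were negative and 47 against 0 had an unadjusted p under 0.05, with a median of -0.22. Rps25, whose promoter is shown above with its ETS core, lay at 134, 157 and 176 CPM in PSD-95i and 156, 181 and 241 CPM in PICK1i (-0.29 ± 0.09). Without PICK1i replicates 1, 2 and 5 the median was -0.01, and with length tilt as a covariate 0.05. In 59 of the 79 genes (74.7%) these libraries were the 3 highest. Many ribosomal genes have near-identical pseudogenes that can share reads, so single values are uncertain. Of 31 proteasome subunits 11 against 1 had an unadjusted p under 0.05 with a median of -0.11, and Psma4, of the catalytic core, had -0.31 ± 0.08, and -0.11 without those libraries. Of 35 genes of mitochondrial import and biogenesis 10 against 2 did, with a median of -0.13. Among them Tomm7 had -0.30 ± 0.09 and Tomm70a, of the same outer membrane complex, 0.29 ± 0.10, at -0.07 and 0.07 without those libraries. DESeq2 called 2 genes of each of these 2 lists, and edgeR 0. For 19 of the 35 import and biogenesis genes DESeq2 gave no adjusted p. Without PICK1i replicates 1, 2 and 5 the medians of both lists were -0.03.

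Immediate early genes, transcribed within minutes of neuronal firing, kept more of their value. Of 32 listed 29 were tested, edgeR and DESeq2 called 0, DESeq2 giving no adjusted p for 23, 26 were negative, and 4 had an unadjusted p under 0.05, all negative, a share near the background of 11.9%. The median was -0.18, -0.13 without PICK1i replicates 1, 2 and 5 and -0.14 with length tilt as a covariate. Arc, a synaptic effector gene, lay at 8.94, 14.7 and 20.5 CPM in PSD-95i and at 18.3, 19.9 and 24.9 CPM in PICK1i. Of the 8 PSD-95i libraries 6 lay below every PICK1i library. The log2 fold change of Arc was -0.47 ± 0.14 (edgeR adjusted p = 0.123), -0.36 without the 3 libraries and -0.79 with PICK1i replicate 6 kept. Saline libraries held a median of 15.5 CPM of Arc. Ier5 had -0.28 ± 0.09 and -0.24, Junb -0.32 ± 0.14 and -0.19, and Ier3 -0.27 ± 0.11 and -0.17, the second value of each without PICK1i replicates 1, 2 and 5.

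Chaperones followed the same pattern. Of 24 heat shock and chaperone genes edgeR called 0 and DESeq2 4, namely Dnajb5, Hspe1, Ahsa1 and Hsp90aa1, and 10 against 1 had an unadjusted p under 0.05, with a median of -0.13, or -0.10 without PICK1i replicates 1, 2 and 5. Ahsa1, an activator of HSP90, lay at 114, 128 and 144 CPM in PSD-95i and at 140, 142 and 154 CPM in PICK1i (-0.17 ± 0.05). A single PSD-95i library, replicate 4, reached into the PICK1i range, and the value without the 3 libraries was -0.16. Hsp90aa1, the inducible HSP90 gene, lay at 854, 885 and 1005 CPM against 946, 1011 and 1108 CPM (-0.15 ± 0.05, and -0.12). Dnajb5 had -0.32 ± 0.08 and -0.14, and Hspe1, the mitochondrial cochaperonin gene, -0.35 ± 0.09 and -0.17.

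Cholesterol genes were on the positive side. Of 25 genes of synthesis and uptake 24 were tested, edgeR called 0 and DESeq2 3, and 7 against 0 had an unadjusted p under 0.05, with a median of 0.08. Srebf2, the transcription factor of the pathway, lay at 257, 279 and 314 CPM in PSD-95i and 181, 218 and 296 CPM in PICK1i (0.28 ± 0.09). Without PICK1i replicates 1, 2 and 5 Srebf2 was at 0.11 and the median of the list at 0.04. Of 20 clock genes 2 had an unadjusted p under 0.05, near the background, Cry2 (0.24 ± 0.07) and Tef (0.15 ± 0.05), both called by DESeq2, and the median of 0.12 was 0.01 without those libraries. Of 22 glucocorticoid-responsive genes tested 4 did, all negative, among them the metallothionein genes Mt2 (-0.36 ± 0.11) and Mt1 (-0.26 ± 0.11). Leaving out PICK1i replicates 1, 2 and 5 brought Mt2 to -0.10 and turned Mt1 to 0.01. The median of this list went the other way, from -0.06 to -0.12, and its member Ddit4 from -0.19 to -0.23.

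Genes with the smallest p were taken from the whole table, 12 in each direction. Among the 12 with a higher mean in PSD-95i, Mycl, a transcription factor gene of the MYC family, lay at 7.95, 8.35 and 10.3 CPM in PSD-95i and at 4.28, 5.49 and 7.14 CPM in PICK1i. All 8 PSD-95i libraries lay above all 7 PICK1i libraries. The log2 fold change of Mycl was 0.63 ± 0.11 (unadjusted p = 1.81e-05, edgeR adjusted p = 0.123), 0.54 without PICK1i replicates 1, 2 and 5 and 0.52 with length tilt as a covariate. Saline libraries spread over both groups, from 3.87 to 9.24 CPM. Lancl2, a lanthionine synthetase-like gene, lay at 39.7, 44.9 and 47.4 CPM against 25.2, 33.5 and 39.4 CPM (0.41 ± 0.09), again without overlap.

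Activators of Ras stood among the 12. Rasgrp1 lay at 51.3, 55.3 and 66.4 CPM against 32.1, 39.4 and 53.4 CPM (0.44 ± 0.10), and Rasgrf2, a neuronal exchange factor gene activated by calcium, at 243, 264 and 307 CPM against 159, 206 and 261 CPM (0.38 ± 0.09). Polr3b, a core subunit gene of RNA polymerase III, lay at 22.99, 24.8 and 28.2 CPM against 16.2, 18.8 and 24.3 CPM (0.36 ± 0.08), and saline libraries at 23.98 to 31.1 CPM. The other members were the receptor-like gene Gpr107 (0.25), the Golgi transport gene Sft2d2 (0.40), the Elongator subunit gene Ikbkap (0.36), the palmitoyltransferase gene Zdhhc22 (0.60), the anthrax toxin receptor gene Antxr1 (0.42), the protocadherin gene Pcdhga3 (0.60) and the matrix protein gene Crtac1 (0.24). Pcdhga3 shares exons with its cluster, so its reads are uncertain. Crtac1 was at 0.25 without PICK1i replicates 1, 2 and 5, and the 12 ranged there from 0.19 to 0.54.

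Among the 12 genes with a higher mean in PICK1i, Donson, a gene of DNA replication forks, lay at 8.69, 10.2 and 11.1 CPM in PSD-95i and at 12.1, 13.3 and 15.6 CPM in PICK1i without overlap (-0.39 ± 0.08, edgeR adjusted p = 0.123). Saline libraries ran from 7.21 to 13.7 CPM. Vegfa, the growth factor of blood vessels, lay at 35.9, 39.3 and 44.5 CPM against 42.1, 49.96 and 56.9 CPM (-0.33 ± 0.07). Its value was -0.34 without PICK1i replicates 1, 2 and 5, whose replicate 1 was the lowest of its group. Fabp7, a fatty acid binding protein gene of astrocytes and radial glia, had the largest value of the 12, -0.61 ± 0.14, at 12.7, 14.7 and 16.4 CPM against 15.5, 21.6 and 33.9 CPM. Without the 3 libraries Fabp7 was at -0.28. Cacybp (-0.27) encodes a calcyclin-binding protein, Ruvbl2 (-0.39) an ATPase of chromatin complexes, and Rnf215 (-0.30) a RING finger protein. Srek1 (-0.28), Tra2a (-0.27), Zcrb1 (-0.34) and Sarnp (-0.31) encode proteins of RNA splicing or export. Mirg (-0.38) is a long noncoding RNA of an imprinted cluster, whose counting with respect to strand is not given in the sources used here.

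All 24 of these genes had an adjusted p of 0.123 by edgeR. Without PICK1i replicate 7 edgeR called all 24, with adjusted p from 0.0134 to 0.0207. That fit called 2070 of 15363 genes, and the 24 were picked by small p in the same libraries, so this is no separate support. DESeq2 called 16 of them and gave no adjusted p for the other 8. Without PICK1i replicates 1, 2 and 5 all 24 kept their sign, as did 98.4% of all genes at an unadjusted p under 0.05. Their absolute log2 fold changes were 0.16 to 0.54, and the median of the share of the value left was 69.7%. In 8 of the 12 positive genes these libraries were the 3 lowest, and in 8 of the 12 negative genes the 3 highest.

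**Figure D4:**
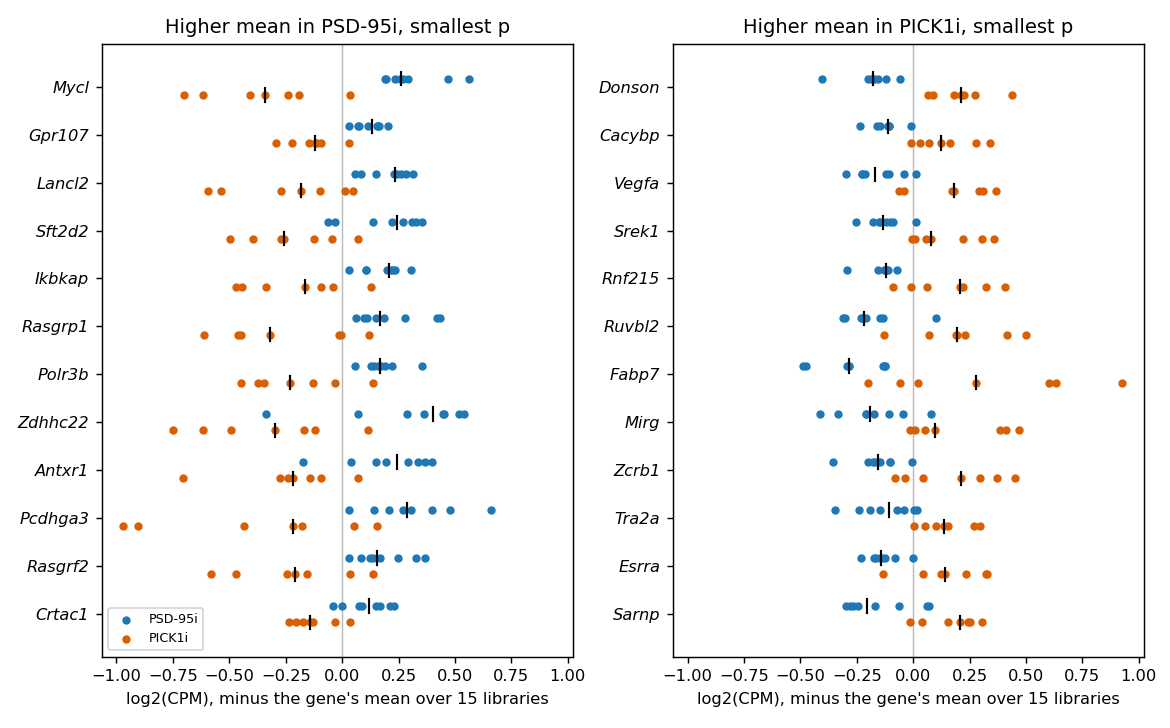
The 12 genes with the smallest p in each direction, as log2 CPM minus the gene's mean over the 15 libraries, PSD-95i in blue and PICK1i in orange, one point per library with a black bar at each group's median. Mycl and Lancl2 on the left and Donson on the right are the 3 genes without overlap between the groups.

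Complete separation of the groups was rare. In 12 of 15331 genes (0.0783%) no PSD-95i library lay within the range of PICK1i, 4 with all PSD-95i libraries above (0.0261%) and 8 with all below (0.0522%). The first were Mycl, Lancl2, Fam81a (0.34 ± 0.08) and the ubiquitin ligase scaffold gene Cul4a (0.25 ± 0.08). The others were Donson, Faim, an inhibitor of Fas-driven cell death (-0.25 ± 0.07), Sec62, of protein entry to the endoplasmic reticulum (-0.16 ± 0.05), Zrsr1, a splicing factor gene (-0.16 ± 0.05), Kifc5b (-0.51 ± 0.15), Ppip5k1, an inositol pyrophosphate kinase gene (-0.08 ± 0.04), and the gene models Gm13889 (-0.65 ± 0.13) and Gm16089 (-0.62 ± 0.15). These 12 were named after their values were seen. Sec62 lay at 216, 234 and 247 CPM in PSD-95i and at 250, 258 and 278 CPM in PICK1i. Ppip5k1 lay at 134, 144 and 147 CPM against 148, 150 and 154 CPM, a separation of small size whose unadjusted p was 0.0557. Cul4a was at 0.09 without PICK1i replicates 1, 2 and 5, and the other 11 were between 0.07 and 0.54 in absolute value.

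Differences above 2-fold were found in 4 genes, Itgb7, Gm26315, Omp and Gm22513, all with a higher mean in PICK1i. Omp, the olfactory marker protein gene, had a median of 1.42 CPM in PSD-95i and 1.64 CPM in PICK1i, and reached 13.9 CPM in 1 PICK1i library. Itgb7, an integrin gene of lymphocytes, had medians of 1.59 and 2.02 CPM and reached 13.3 CPM. These 4 were also named after their values were seen.

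Markers of other cell types were given as sums and counts, and their part in the results above was not tested. Of 18 markers of myelin and mature oligodendrocytes 5 had an unadjusted p under 0.05, all negative, with a median of -0.10. They summed to 5927 to 7206 CPM in PSD-95i and to 5760 to 9651 CPM in PICK1i. Mobp and Mbp, genes of myelin proteins, had -0.32 ± 0.11 and -0.34 ± 0.13, and -0.09 and -0.12 without PICK1i replicates 1, 2 and 5. Of 14 astrocyte markers 3 were positive and 1 negative at that level, with sums of 4426 to 4914 CPM against 3838 to 4644 CPM, and Slc4a4, a bicarbonate transporter gene, had 0.39 ± 0.13, and 0.12 without those libraries. Of 16 neuronal markers 1 had an unadjusted p under 0.05, Tubb3 (-0.15 ± 0.06, and -0.05 without those libraries), and the median was -0.01.

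Microglial markers were divided. Of 17, 15 were tested, and 3 positive genes and 1 negative gene had an unadjusted p under 0.05, with sums of 541 to 617 CPM against 504 to 618 CPM. Mpeg1, a pore-forming protein gene of macrophages, lay at 25.0, 30.6 and 37.8 CPM in PSD-95i and at 18.3, 21.9 and 28.3 CPM in PICK1i (0.39 ± 0.10, and 0.29 without PICK1i replicates 1, 2 and 5). Aif1, of an actin-binding protein of microglia, had the opposite sign, -0.53 ± 0.19, and -0.21 without those libraries. Aif1 reached 6.27 CPM in PICK1i replicate 1 and at most 3.51 CPM elsewhere in that group.

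Tanycytes, the glia of the third ventricle wall that carry hormones to the arcuate nucleus, had a median of 0.21 over 19 genes tested, or 0.09 without PICK1i replicates 1, 2 and 5. Only Deptor (0.36 ± 0.12, and 0.23 without them) and Col23a1 (0.35 ± 0.14, and 0.39) had an unadjusted p under 0.05, 2 of 19 and near the background. Ependymal markers had a median of -0.20 over 15 genes, 5 of them at that level and negative, or -0.06 without those libraries. For choroid plexus 7 of 12 genes were tested and the sums ran from 86.8 to 115 CPM against 67.7 to 116 CPM. Its defining markers Folr1, Kcne2 and Slc4a5 were under the filter, at most at 0.749, 0.651 and 0.364 CPM in any of the 15 libraries. Clic6 had 0.30 ± 0.09 and Otx2 -0.83 ± 0.30, at 0.16 and -0.57 without those libraries.

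Blood markers varied widely between libraries. The 7 red blood cell markers tested of 9 were all negative, with a median of -0.42, 3 at an unadjusted p under 0.05. The median was -0.77 without PSD-95i replicate 6, -1.02 with PICK1i replicate 6 kept and -0.19 with length tilt as a covariate. They summed to 269 to 716 CPM in PSD-95i, the highest being replicate 6, and to 354 to 678 CPM in PICK1i. Hba-a1 and Hba-a2, near-identical globin genes, had -0.82 ± 0.29 and -0.64 ± 0.25, and -1.68 and -1.25 with PICK1i replicate 6 kept. Pituitary hormone genes were under the filter, and Gh was at most at 41.4 CPM and Prl at 6.12 CPM. Of 14 cortical and hippocampal markers tested 1 is Slc17a7, which chose the libraries. Of the other 13, 3 had an unadjusted p under 0.05, 1 positive and 2 negative, and the median was -0.02. The 2 negative ones were Camk2n1 (-0.20 ± 0.06) and Neurod2 (-0.92 ± 0.28), at -0.09 and -0.63 without PICK1i replicates 1, 2 and 5. Neurod2 lay at 0.755, 1.35 and 2.04 CPM in PSD-95i and 1.12, 2.35 and 4.58 CPM in PICK1i. The median of all 14 moved from -0.08 to -0.44 when PICK1i replicate 6 was kept. Of 31 markers of hypothalamic nuclei 3 had an unadjusted p under 0.05, 1 positive and 2 negative, and the median was 0.01. The positive one, Sox14, a transcription factor gene of developing neurons, had 0.73 ± 0.22, and 0.44 without PICK1i replicates 1, 2 and 5. Sox14 lay at 2.29, 4.85 and 5.61 CPM against 1.22, 2.66 and 3.47 CPM.

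**Figure D5:**
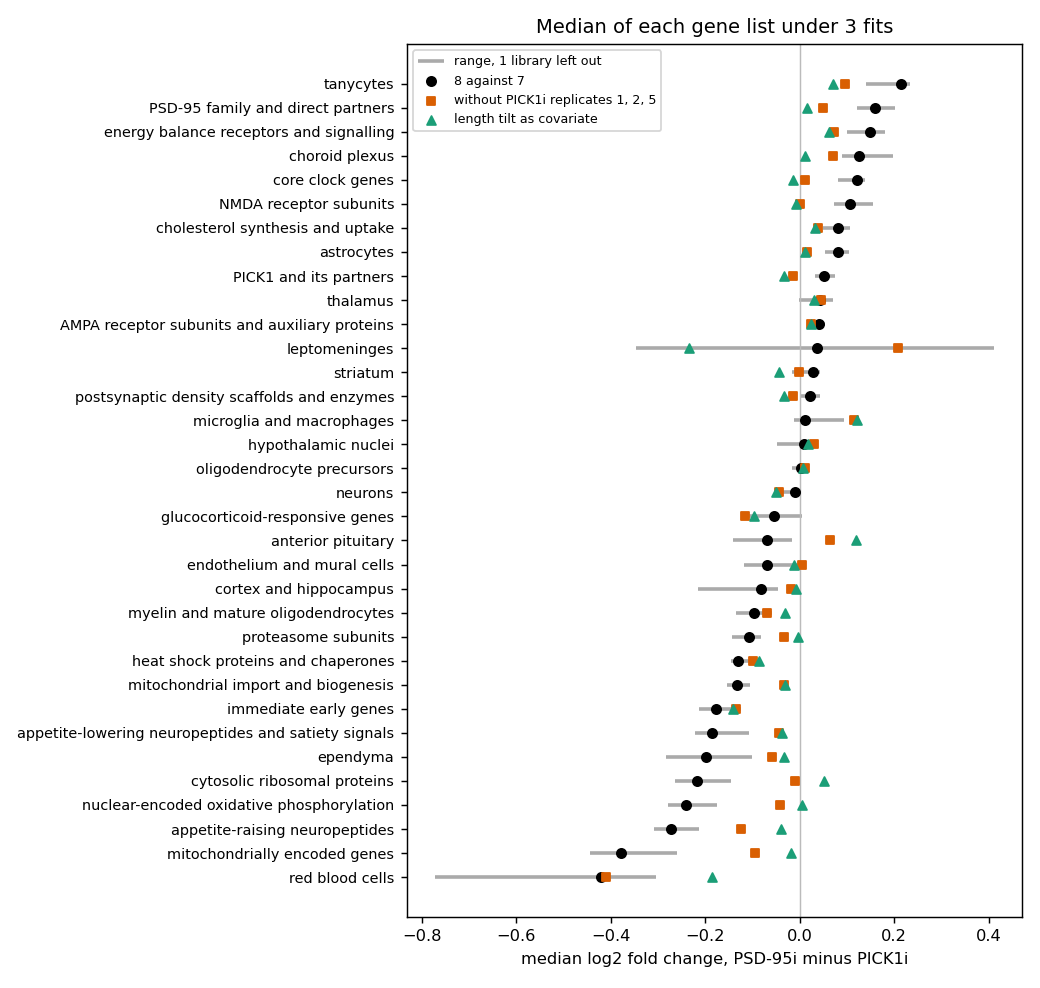
Median log2 fold change (PSD-95i minus PICK1i) of the 34 gene lists in the fit of all 15 libraries (black), without PICK1i replicates 1, 2 and 5 (orange) and with length tilt as a covariate (green), with the range over fits that leave out 1 library (grey). Oxidative phosphorylation moves from -0.24 to -0.04 and 0.005, while the immediate early genes stay between -0.18 and -0.13.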

How the data were processed

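Poly(A) RNA of whole hypothalamus was sequenced with 52-base paired reads, per the labels' protocols. Base calls were made with bcl2fastq 2.20.0, and STAR, Salmon and GRCm38 were used, per the submitters' processing notes. For STAR and Salmon, version and settings were not given, nor were the gene annotation and whether strand was used, in the sources used here. The authors deposited unnormalized estimated counts for 45706 genes and 109617 transcripts, and 94.3% of gene values were whole within 0.001. Library depth was 5601717 to 9228858 counts in the 15 libraries compared, and intervals cover counting error only.

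The estimated counts were rounded, filtered with filterByExpr (minimum count 10), scaled by TMM and tested with edgeR 4.0.16 (quasi-likelihood test, R 4.3.3) on the 8 PSD-95i and 7 PICK1i libraries alone. P-values were adjusted over all features by Benjamini-Hochberg, with a threshold of 0.05. Levels per gene are CPM on TMM-scaled totals, and sums over lists are CPM on plain totals. Differences of single library measures were tested by exact permutation. The script was tested on simulated data. Alternatives were DESeq2 1.42.0, limma 3.58.1 (voom), other scalings and filters and a stricter minimum count of 50. Others took length tilt, the replicate number or the library number as covariates, took consecutive library numbers as a random block, or left out libraries. Length tilt used GENCODE M21 transcript lengths, found for 45356 genes. No same-group pair of libraries among 49 was identical. The labels give 8 saline libraries while the protocol speaks of 6 saline mice.

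The members, the mitochondrially encoded share and the 34 gene lists were chosen with earlier results of these data known. Genes named were a fixed set of targets, receptor subunits and appetite peptides, the 12 with the smallest p in each direction at a mean of at least 1 CPM, and up to 4 members of each list with the smallest p. Other members named in the text, and those stated so, were chosen after their values were seen. Protein sequences were not used here, and promoters are from RefSeq (GRCm38.p6). Some list members are counted in the lists but not reported here by name.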

Additional observations from a re-analysis of the deposited data

Results flagged for a closer look

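Among 264 groups of values for the named genes and measures, 16 (6.06%) held a library far from the rest by Dixon's test, where chance gives about 1 in 20. In PICK1i replicate 5, 4 genes stood apart. Deptor was at 21.1 CPM against 32.7 to 37.6 in the rest of its group, and Fam81a at 29.8 CPM against 39.99 to 46.8. Gm16089 was at 5.74 CPM against 3.72 to 4.58, and Grin2d at 106 CPM against 76.5 to 83.8. In PICK1i replicate 1, Aif1 was at 6.27 CPM against 2.54 to 3.51 and Shisa9 at 69.8 CPM against 89.7 to 103. In PSD-95i replicate 6, the globin genes Hba-a1 and Hba-a2 were at 47.1 and 229 CPM, against 9.72 to 18.3 and 56.6 to 117 CPM.

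The other PSD-95i libraries far from their group held single genes or pairs of genes. Replicate 5 had Donson at 8.69 CPM against 10.02 to 11.1 and Shisa9 at 92.2 CPM against 102 to 108. Replicate 4 had Grip1 at 10.3 CPM against 13.6 to 16.6 and Hspe1 at 67.8 CPM against 50.3 to 56.7. Replicate 1 had Rnf215 at 37.4 CPM against 41.2 to 43.7 and Rpl36a at 44.6 CPM against 54.1 to 59.4. Replicate 2 had Faim at 17.1 CPM against 20.3 to 22.2, and replicate 8 had Ruvbl2 at 23.5 CPM against 17.7 to 19.98.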

How the results depend on the processing

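DESeq2 called 700 genes where edgeR called 0, and leaving out 1 library gave 0 to 2070 genes and 0 to 2673 transcripts, the upper values without PICK1i replicate 7. The cause was not tested. The difference in mitochondrially encoded share was -0.425 points (exact permutation p = 0.404) without PICK1i replicates 1, 2 and 5, and -2.95 to -1.63 with 1 library left out. Those replicates had the highest shares of their group, so leaving them out had to make the difference less negative. Over the 131 genes refitted, 51 of 3917 log2 fold changes under 30 alternatives had the opposite sign, in 18 genes.

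With the replicate block and length tilt together these included Dlg4 0.053, Dlg1 -0.018, Dlg3 -0.0012, Grin1 -0.011, Grin2a -0.017, Gria2 -0.076, Gria4 -0.034, Npy 0.13, Pomc 0.18, Cartpt 0.066, Begain 0.028, Ghrh 0.023, Gal 0.042, Rpl36a 0.0094 and Mt1 0.092. With length tilt alone they were Dlg4 0.038, Dlg1 -0.044, Dlg2 -0.014, Dlg3 -0.017, Grin1 -0.046, Grin2a -0.021, Gria2 -0.11, Gria4 -0.014, Npy 0.18, Pomc 0.21, Cartpt 0.12, Begain 0.028, Gal 0.018 and Mt1 0.087. Without PICK1i replicates 1, 2 and 5 they were Dlg4 0.024, Dlg1 -0.039, Dlg3 -6.6e-05, Grin1 -0.047, Gria2 -0.066, Npy 0.086, Pomc 0.14, Cartpt 0.069 and Mt1 0.011. With library number as covariate they were Grin1 -0.061, Npy 0.094, Pomc 0.15 and Cartpt 0.081. With PICK1i replicate 6 kept they were Grin1 -0.013 and Camk2a -0.068. With sample weights they were Dlg4 0.0024 and Gria2 -0.00031. With 1 library left out Dlg4 ran from -0.029 to 0.0079. With 1 library left out Grin1 ran from -0.012 to 0.053. The cause of these turns was not tested.

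Same-numbered libraries did not deviate together: of 7 pairs 0 had a correlation over 0.1 (-0.116 to 0.0793), and 0 libraries correlated best with their own number. The fit with the replicate block called 0 genes, with 3142 at an unadjusted p under 0.05 and a smallest adjusted p of 0.183. Libraries paired by consecutive number, such as 1 with 2 and 11 with 12, were of the same group. Taken as a random block in limma-voom, they had a consensus correlation of 0.248. That fit called 0 genes, with 2795 at an unadjusted p under 0.05 against 3467 by limma-voom without the block. Its smallest adjusted p was 0.176. Whether such pairs came from mice housed together is not given. Genes at a few CPM, such as Agrp and Glp1r, rest on few counts at this depth.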

Other observations

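Leptomeningeal markers, genes of the fibroblasts of the brain's outer coat, varied more between libraries of a group than between the groups. The 18 markers summed to 93.8 to 465 CPM in PSD-95i and to 77.7 to 480 CPM in PICK1i. Of these 18, 0 had an unadjusted p under 0.05 by edgeR, edgeR called 0, DESeq2 gave no adjusted p for all 18, and the median log2 fold change of 0.04 ran from -0.35 to 0.41 with 1 library left out. Endothelial and mural markers had a median of -0.07 over 18 genes, and the tight junction gene Cldn5 had -0.39. Without PICK1i replicates 1, 2 and 5 the median was 0.005 and Cldn5 was at -0.26.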
